A study of Homo sapiens with 4 samples.

Results

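The genes described here are the 50 human protein-coding genes whose names start with PSMA, PSMB, PSMC, PSMD, PSME, PSMF or PSMG followed by a digit, out of 20033 protein-coding genes of GENCODE release 44. The rule that selects them uses the name alone and no measured value. Of the 50 genes, 48 encode proteasome subunits, activators, inhibitors or assembly chaperones, while PSMC3IP, a factor of meiotic recombination, and PSME3IP1, a protein that binds the activator PSME3, match the name only. Binding of RNA polymerase II (Pol II) was mapped by chromatin immunoprecipitation sequencing (ChIP-seq) in SK-OV-3, an established human ovarian cancer cell line. In the shRRN3 cells a short hairpin RNA targeted RRN3, which RNA polymerase I needs to start transcribing ribosomal RNA, and in the control cells (shLacZ) the hairpin targeted LacZ, a gene these cells do not have. A list of Pol II peaks was used for each hairpin, without the inputs, which were not analysed here. With 1 library per hairpin there was no spread between replicates, so the values below compare these libraries and carry no test between the hairpins.

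There were 4014 Pol II peaks in shLacZ cells and 14363 in shRRN3 cells, so a larger share of all genes carried a peak in the second. Peak lists hold no read counts, and the depth behind them is unknown here. RRN3 itself had no peak in either list, and Pol II peaks cannot check a knockdown by a hairpin, which acts on the mRNA. At the start of PAX8, a Müllerian lineage factor, a peak was listed in both, while KRT8 and KRT18 had a start peak in shRRN3 alone, KRT7 had a peak outside its start in shRRN3 alone, ERBB2 had no peak, and the leukocyte genes PTPRC and CD3E had none.

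The proteasome degrades proteins that carry ubiquitin chains. Its barrel-shaped core particle (20S) is built of rings of alpha subunits (PSMA genes) and beta subunits (PSMB genes), and some beta subunits cut peptide bonds. A cap (19S) with ATPases (PSMC genes) and other subunits (PSMD genes) recognises, unfolds and feeds the substrate. These genes are used in nearly all cells and are known to be induced together when proteasome activity falls, through the transcription factor NFE2L1, which binds antioxidant response elements in their promoters. Pol II tends to accumulate near starts of active genes. A peak there marks Pol II bound near the start, does not show that it is transcribing, and is not a measure of mRNA.

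A peak counted as lying at the start of a gene when its midpoint was within 1 kb of the 5' bound of the annotated gene. In shLacZ, 10 of the 50 genes had such a peak, or 20% (95% Clopper-Pearson interval 10% to 33.7%), against 7.56% of all protein-coding genes. In shRRN3, 22 of 50 did, or 44% (30% to 58.7%), against 23.7% of all protein-coding genes. A start peak was found in both lists at 8 genes (background 6.41%), in shLacZ alone at 2 (1.15%), in shRRN3 alone at 14 (17.3%) and in neither at 26 (75.1%). The intervals cover counting error only and treat genes as independent. Of the 10 genes with a shLacZ start peak, 80% also had one in shRRN3, compared with 84.8% over all protein-coding genes. Of the 40 genes without one, 14 had a start peak in shRRN3, or 35% (20.6% to 51.7%), compared with 18.7%. With only the top 3920 shRRN3 peaks by score, the number of shLacZ peaks on chromosomes 1 to 22, X and Y, 11 genes had a start peak. Of these, PSMD4, PSMC6 and PSMD7 were marked in shRRN3 alone, and the other 11 of the 14 genes of that class had scores below the top 3920. The shares at this equal length were 22% of the proteasome genes and 9.74% of all protein-coding genes.

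**Figure D1:**
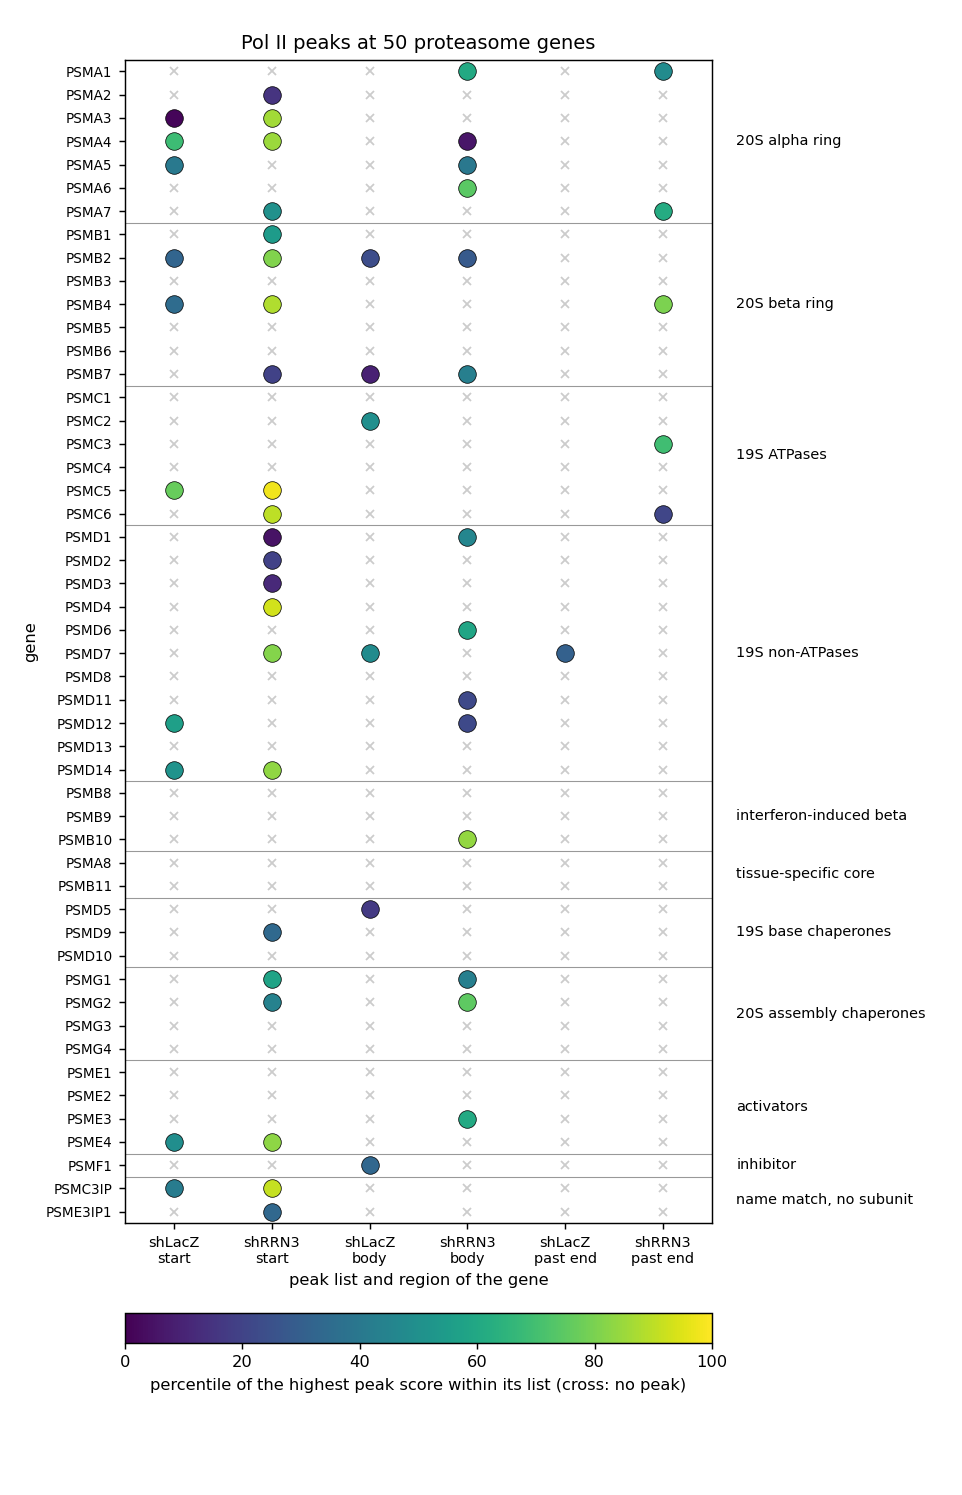
Each row is one of the 50 genes, grouped by role, and each column is a peak list and a region of the gene (start within 1 kb, remaining body, 2 kb past the end). Circles mark a peak and their colour gives the percentile of its score within its own list, crosses mark no peak. The shRRN3 start column holds 22 circles and the shLacZ start column 10, while past the end there are 5 and 1.

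The promoters of 5 genes are shown because they cover the 3 ways in which a start peak was found. PSMA3 and PSMD14 had a start peak in both lists, PSMC6 in shRRN3 alone, and PSMD12 and PSMA5 in shLacZ alone. Each sequence is the 250 bases before the RefSeq start (GRCh38.p14), 5′ to 3′ on the strand of the gene, and capitals mark motifs that are described further on. The windows are chr14:58244593-58244842 (plus strand) for PSMA3, chr2:161308175-161308424 (plus) for PSMD14, chr14:52706950-52707199 (plus) for PSMC6, chr17:67366578-67366827 (minus) for PSMD12 and chr1:109426449-109426698 (minus) for PSMA5.
PSMA3: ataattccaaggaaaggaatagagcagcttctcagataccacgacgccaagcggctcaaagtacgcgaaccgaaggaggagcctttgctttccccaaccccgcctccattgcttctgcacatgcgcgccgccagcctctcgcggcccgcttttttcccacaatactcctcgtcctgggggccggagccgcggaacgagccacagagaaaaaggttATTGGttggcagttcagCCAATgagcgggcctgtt
PSMD14: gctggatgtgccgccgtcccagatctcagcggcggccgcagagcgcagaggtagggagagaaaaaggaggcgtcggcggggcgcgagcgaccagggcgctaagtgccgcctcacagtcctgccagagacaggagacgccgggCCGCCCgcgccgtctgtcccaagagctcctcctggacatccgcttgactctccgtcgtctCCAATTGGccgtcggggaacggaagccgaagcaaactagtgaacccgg
PSMC6: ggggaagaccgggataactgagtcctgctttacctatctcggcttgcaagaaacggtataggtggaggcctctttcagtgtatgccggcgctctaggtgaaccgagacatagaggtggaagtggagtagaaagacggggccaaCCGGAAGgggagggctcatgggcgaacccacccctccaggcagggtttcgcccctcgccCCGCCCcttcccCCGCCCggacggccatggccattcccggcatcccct
PSMD12: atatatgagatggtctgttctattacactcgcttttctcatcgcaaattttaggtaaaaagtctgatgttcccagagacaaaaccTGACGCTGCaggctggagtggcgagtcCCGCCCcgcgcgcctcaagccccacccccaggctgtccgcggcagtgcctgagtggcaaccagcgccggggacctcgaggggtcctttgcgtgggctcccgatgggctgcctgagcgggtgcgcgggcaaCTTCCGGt
PSMA5: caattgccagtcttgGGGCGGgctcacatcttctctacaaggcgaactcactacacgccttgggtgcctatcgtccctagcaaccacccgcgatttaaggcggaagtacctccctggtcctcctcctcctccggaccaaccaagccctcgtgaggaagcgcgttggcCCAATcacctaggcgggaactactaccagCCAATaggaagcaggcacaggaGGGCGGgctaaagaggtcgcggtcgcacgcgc

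The core alpha ring was examined first. Scores are given with their percentile within their own list. The percentile of a given peak rises when a longer list adds peaks of lower score beneath it, and falls when it adds peaks of higher score. PSMA3 had a shLacZ start peak (chromosome 14, 58244767 to 58245101) with a score of 50.3, at percentile 1.25 of its list and thus near the lowest score listed. The shRRN3 peak there (58244422 to 58245092) had a score of 143, at percentile 86.1, and covered 97.3% of the shLacZ peak. At PSMA4 the shLacZ peak (chromosome 15, 78539947 to 78540657) scored 81.6, at percentile 68.5. The shRRN3 peak at PSMA4 (78539869 to 78540843) scored 138, at percentile 85.1, and contained the whole shLacZ peak. Both genes were thus marked with either hairpin, and the wider peak was in shRRN3.

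PSMA5 showed the opposite. Its shLacZ peak (chromosome 1, 109425850 to 109427005) was 1156 bp wide, centred 21 bp into the gene, and scored 61.1 (percentile 40.5). The nearest shRRN3 midpoint lay 26934 bp away, near the end of the same gene, and belonged to a body peak of score 66.6. PSMA2 and PSMA7 had a start peak in shRRN3 alone, with scores of 54.4 and 75. The PSMA2 peak was also 131 bp from the start of the protein-coding gene ENSG00000256646 and cannot be assigned to PSMA2 alone. PSMA1 and PSMA6 had no peak at the 5' bound of the gene, but their annotated spans begin 123249 bp and 13749 bp upstream of the canonical transcript start. At these canonical starts shRRN3 had peaks of scores 84.5 and 107, with midpoints 193 bp downstream for PSMA1 and 85 bp upstream for PSMA6. The PSMA1 peak was also 151 bp from the start of ENSG00000256206 and cannot be assigned to PSMA1 alone. Counted at canonical starts, 6 of the 7 alpha ring genes had a peak in shRRN3 and 3 of 7 in shLacZ.

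Among beta ring genes, 2 of 7 had a start peak in shLacZ and 4 of 7 in shRRN3. PSMB2 had a shLacZ peak (chromosome 1, 35641407 to 35641832) of score 58.1, percentile 32.2. The shRRN3 peak at PSMB2 (35641205 to 35642020) had a score of 122, percentile 80.9. PSMB4 had a shLacZ peak (chromosome 1, 151399345 to 151399763) of score 58.9, percentile 35.1, and a shRRN3 peak (151399289 to 151400220) of score 153, percentile 88.2. A further shRRN3 peak of score 50.3, at the foot of its list, lay 956 bp into PSMB4, just inside the 1 kb limit. PSMB1 carried 2 start peaks in shRRN3 alone, of scores 78.5 and 68, and PSMB7 carried one of score 56.4. Among the 7 beta ring genes, PSMB5, PSMB6 and PSMB7 encode the subunits that cut peptide bonds. Of these, only PSMB7 had a peak in any region of either list. The shLacZ and shRRN3 midpoints nearest to the PSMB5 start were 28130 bp and 26985 bp away, and those nearest to PSMB6 were 486141 bp and 5743 bp away. PSMB3, a structural beta subunit, had no peak either.

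Among the 6 ATPases of the cap, PSMC5 was the gene with the highest start score of all 50 in both lists. Its shLacZ peak (chromosome 17, 63826887 to 63827841) scored 93.8, at percentile 76.8, and its shRRN3 peak (63826772 to 63827924) scored 319, at percentile 97.9. The midpoints were 16 bp apart. The span of FTSJ3, a nucleolar methyltransferase gene on the opposite strand, reaches over this position and its canonical start lies 315 bp from the shRRN3 midpoint, so an unstranded peak cannot be assigned to PSMC5 alone. PSMC6 had a peak in shRRN3 only (chromosome 14, 52706814 to 52707654), with a score of 164 at percentile 89.9, and the nearest shLacZ midpoint was 244122 bp away. PSMC1, PSMC2, PSMC3 and PSMC4 had no start peak in either list.

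Of the 11 other cap subunits, 2 had a start peak in shLacZ and 6 in shRRN3. PSMD14, the deubiquitinase that removes ubiquitin chains from substrates, had peaks in both. The shLacZ peak (chromosome 2, 161308067 to 161308671) scored 66.2 at percentile 51.3, and the shRRN3 peak (161308013 to 161308712) scored 131 at percentile 83.5. A weaker shRRN3 peak of score 69.1 lay 793 bp upstream of PSMD14. PSMD4, a ubiquitin receptor of the cap, had a shRRN3 peak (chromosome 1, 151254427 to 151255322) that scored 193 at percentile 93.2, and the nearest shLacZ midpoint was 64690 bp away. The start peak of PSMD7 in shRRN3 alone (chromosome 16, 74296214 to 74297131) scored 124. The scaffold subunits PSMD1 and PSMD2 and the subunit PSMD3 had shRRN3 peaks of low score, 51.3, 56.4 and 53.1. The last of these was the widest start peak of the set at 1304 bp. PSMD12 had a start peak in shLacZ alone (chromosome 17, 67365972 to 67366253), 282 bp wide, with a score of 69.3 and a midpoint 493 bp into the gene. The nearest shRRN3 midpoint was 19105 bp away, so no shRRN3 peak stood just outside the 1 kb limit.

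Outside the constitutive subunits, the activator PSME4 and the name match PSMC3IP were the genes with a start peak in shLacZ, and both also had one in shRRN3. At PSME4 the shLacZ peak (chromosome 2, 53970817 to 53971199) scored 65.2 at percentile 49.2 and the shRRN3 peak (53970748 to 53971251) scored 130 at percentile 83.1. At PSMC3IP the shLacZ peak (chromosome 17, 42577506 to 42578152) scored 61.5 at percentile 41.5 and the shRRN3 peak (42577223 to 42578323) scored 174 at percentile 91.3. In shRRN3 alone, peaks stood at PSMD9 (score 63.1), a chaperone of cap assembly, and at PSME3IP1 (62.8). They also stood at PSMG1 (82) and PSMG2 (69.8), chaperones of core assembly. The PSMD9 peak was also 104 bp from the start of the protein-coding gene ENSG00000256950 and cannot be assigned to PSMD9 alone. The PSMG2 peak was at the 5' bound of the gene, and the canonical start lies 44999 bp further downstream. It was also 24 bp from the start of SPIRE1 and cannot be assigned to PSMG2 alone. A separate shRRN3 peak, of score 109, lay within 1 kb of the canonical start of PSMG2. The interferon-induced subunits PSMB8 and PSMB9, the testis subunit PSMA8 and the thymus subunit PSMB11 had no peak in either list. PSMB10, the third interferon-induced subunit, had a shRRN3 peak of score 132 with its midpoint 1025 bp into the gene, just outside the 1 kb limit. That peak was also 178 bp from the start of the protein-coding gene ENSG00000261884 and inside its span. It cannot be assigned to PSMB10 alone. The activators PSME1 and PSME2 had no peak.

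In all, 16 of the 50 genes (32%) had no peak at the start, in the body or past the end in either list, compared with 62.5% of all protein-coding genes. They were PSMA8, PSMB3, PSMB5, PSMB6, PSMB8, PSMB9, PSMB11, PSMC1, PSMC4, PSMD8, PSMD10, PSMD13, PSME1, PSME2, PSMG3 and PSMG4. Any such peak was found at 15 genes in shLacZ (30%, against 13.1%) and at 31 in shRRN3 (62%, against 36.1%). The 31 constitutive subunits of core and cap held 8 of the 10 shLacZ and 16 of the 22 shRRN3 start peak genes. An absent peak says only that no enrichment passed the peak caller at this depth.

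Scores were compared by rank within a list, since raw scores depend on depth. At all 8 genes with a start peak in both lists the percentile was higher in the longer shRRN3 list, with a median difference of 41.3 percentile points. Over the 1284 protein-coding genes with start peaks in both lists, 75.9% had a higher percentile in shRRN3 and the median difference was 14.9. Ranks counted from the top of each list ignore added peaks of lower score. Added peaks of higher score in the longer list still push them down, so neither measure is free of list length. Counted from the top, 4 of the 8 peaks ranked higher in shRRN3 and 4 ranked lower. PSMA3 went from rank 3872 in shLacZ to 1998 in shRRN3, PSMC3IP from 2296 to 1254, PSMB4 from 2547 to 1693 and PSMC5 from 910 to 303. PSMA4 went from 1234 to 2139, PSMD14 from 1910 to 2364, PSME4 from 1992 to 2416 and PSMB2 from 2660 to 2739. Of all 1284 such genes, 34.3% ranked higher in shRRN3 on this count, with a median rank of 1532 in shLacZ and 2338 in shRRN3. In shLacZ the median percentile of these 8 peaks was 45.3, below the 60.9 of all such genes, whereas in shRRN3 it was 85.6 against 83.7. All 8 peaks were also wider in shRRN3, and over all 1284 such genes 82.4% were. The 8 were wider by 1.16 times at PSMD14 to 2.22 times at PSMB4, with a median of 1.54 times against 1.42 times over all such genes. The 14 genes with a start peak in shRRN3 alone had a median percentile of 39.2, compared with 57.7 for all protein-coding genes of that class.

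**Figure D2:**
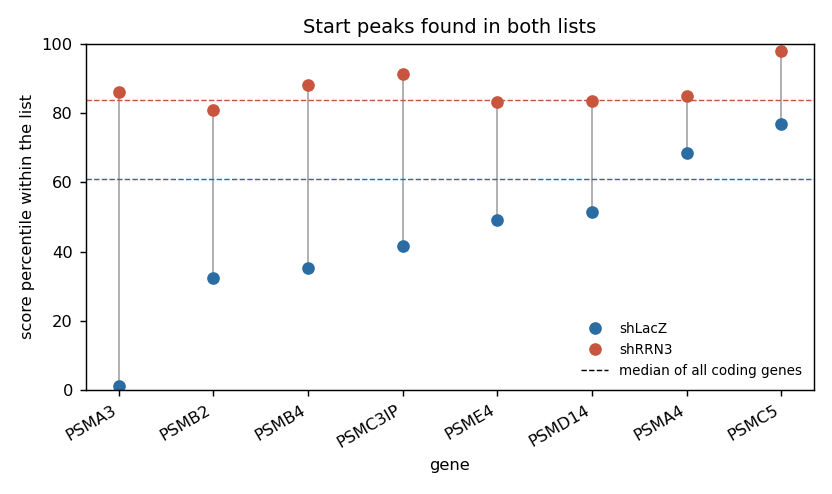
Points give the percentile of the start peak score within the shLacZ list and within the shRRN3 list for the 8 genes with a start peak in both, joined by a line per gene. Dashed lines mark the medians of all protein-coding genes with start peaks in both lists, 60.9 in shLacZ and 83.7 in shRRN3. Every gene lies higher by percentile in shRRN3, the longer list, while by rank from the top of each list 4 of the 8 do. Both measures depend on list length.

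The start peaks were placed close to the start. Of the highest-scoring start peak per gene, 9 of 10 in shLacZ and 19 of 22 in shRRN3 had a midpoint within 250 bp of the start, or 90% and 86.4%. The same shares were 71.4% and 67.5% over all protein-coding genes with a start peak. The midpoints had a median 2 bp upstream in shLacZ, with a range from 103 bp upstream at PSMA4 to 493 bp downstream at PSMD12. In shRRN3 they had a median 17 bp downstream and ran from 465 bp upstream at PSME3IP1 to 504 bp downstream at PSMB1. Median widths were 515.5 bp in shLacZ and 685.5 bp in shRRN3.

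**Figure D3:**
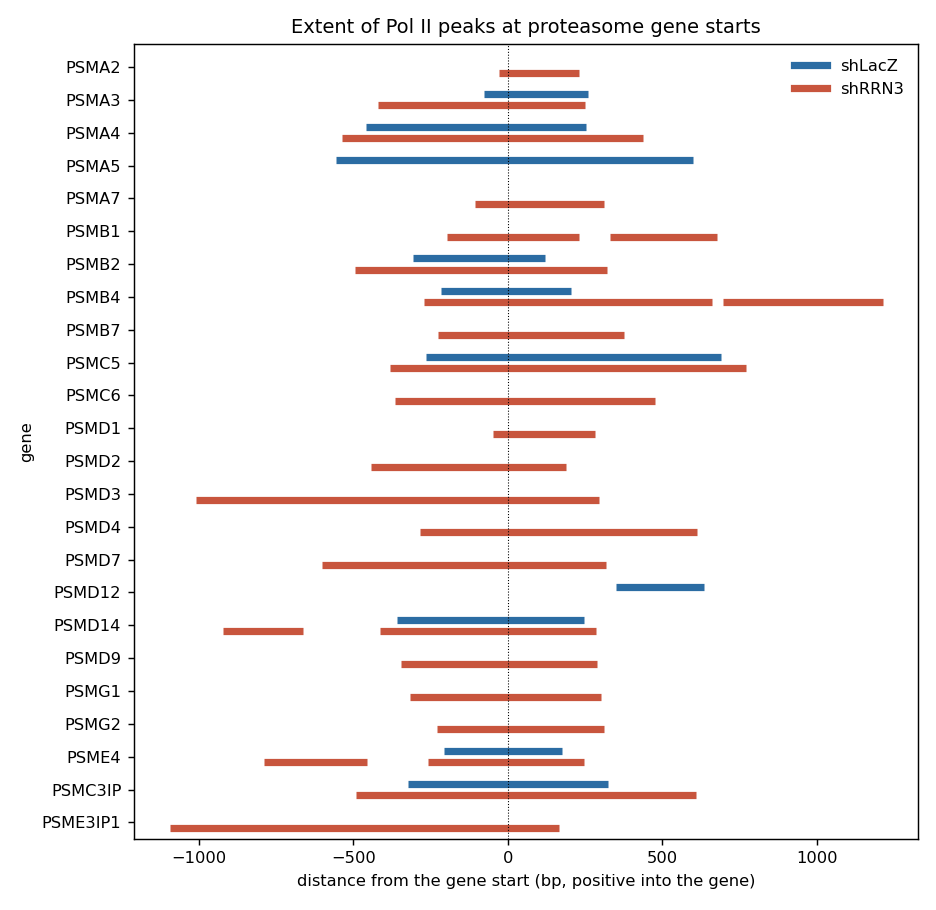
Bars show the extent of each peak at the start of the 24 genes with a start peak in either list, as the distance from the gene start in bp, positive into the gene, with shLacZ above shRRN3. In 8 genes both bars are present and overlap, PSMA5 and PSMD12 have only a shLacZ bar, and 14 genes have only shRRN3 bars.

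Coverage around canonical starts gave the same picture. At 50 bp before the canonical start, 20% of the proteasome genes were covered by a shLacZ peak and 46% by a shRRN3 peak, compared with 6.56% and 22.2% of all protein-coding genes. At 550 bp past it, coverage was 4% in shLacZ and 8% in shRRN3, compared with 0.829% and 5.17%. A peak within 1 kb of the canonical start was found at 11 genes in shLacZ (22%, against 8.18%) and at 25 in shRRN3 (50%, against 25.4%).

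**Figure D4:**
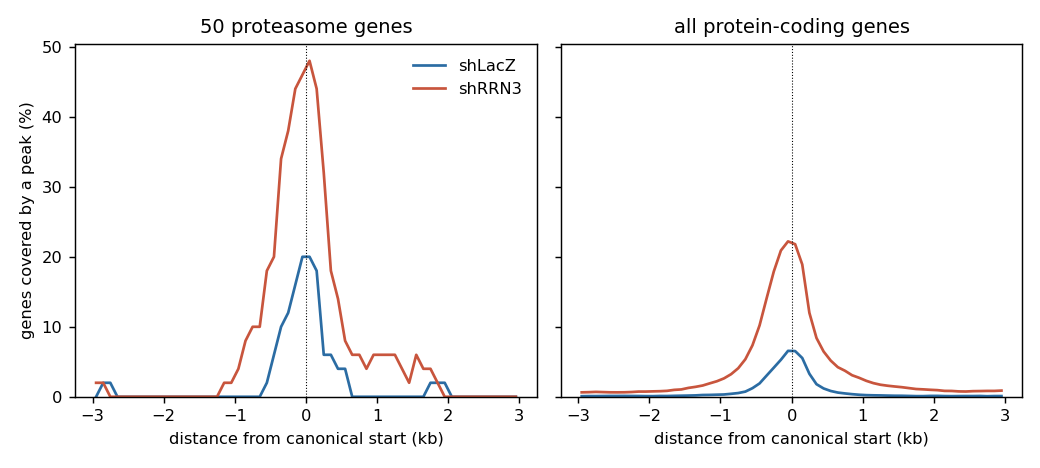
Lines give the percentage of genes covered by a peak in bins of 100 bp up to 3 kb on either side of the canonical start, for the 50 proteasome genes and for 20033 protein-coding genes. Among proteasome genes the lines reach 20% in shLacZ and 48% in shRRN3, next to the start, and among all protein-coding genes 6.56% and 22.2%.

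The bodies of the genes, meaning the annotated span beyond the 1 kb at the start, carried peaks at 6 genes in shLacZ (12%, against 5.76% of all protein-coding genes) and at 14 in shRRN3 (28%, against 18.1%). The proteasome genes have shorter spans, with a median of 16586 bp compared with 27471 bp, and a short gene has less body to hold a peak. Several body peaks stood at other starts. Of the 6 shLacZ body peaks, 4 were within 1 kb of an annotated transcript start of the same gene and 1 of these also lay at another coding gene, and 2 lay away from any such start. Of the 21 shRRN3 body peaks, 8 were within 1 kb of an own transcript start, and 13 were away from any start of these kinds.

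PSMF1, the proteasome inhibitor gene, had a shLacZ peak of score 58.4 placed 20 bp from its canonical start (chromosome 20, 1118485 to 1118759), and no peak in shRRN3. PSMC2 had a body peak in shLacZ alone (chromosome 7, 103344716 to 103344945) whose midpoint coincided with the start of DNAJC2, a chaperone gene on the opposite strand. PSMD5, a chaperone of cap assembly, had a shLacZ peak of score 53.3 (chromosome 9, 120824569 to 120824800) in an exon, and none in shRRN3. PSMB7 and PSMB2 had body peaks that overlapped between the lists. At PSMB7 these lay 22416 bp into the gene in shLacZ and 22391 bp in shRRN3, with scores of 51.6 and 68.8. At PSMB2 they lay 1895 bp and 1809 bp into the gene.

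In shRRN3, the body peaks of PSMA1, PSMA6, PSME3 and PSMG2 with the highest scores were within 1 kb of their canonical starts, at 84.5, 107, 84.6 and 109. The PSME3 peak (chromosome 17, 42832834 to 42833671) lay 98 bp from the start of BECN1, an autophagy gene on the opposite strand. At PSMG2 the peak lay 254 bp from the canonical start of CEP76. The other shRRN3 body peaks of the set had scores between 51.4 at PSMB2 and 82.8 at PSMD6, apart from the PSMB10 peak already described.

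The study concerned RRN3 in Pol II transcription and in the choice of polyadenylation sites, so the 2 kb past the end of each gene were also examined. In shLacZ 1 of the 50 genes had a peak there (2%, against 1.26% of all protein-coding genes) and in shRRN3 5 of 50 did (10%, against 4.43%). No gene of the 50 had one in both lists (interval up to 7.11%), and 0.973% of all protein-coding genes did. In shLacZ the gene with an end peak was PSMD7 (chromosome 16, 74306526 to 74306768), with a score of 57.5 and a midpoint 359 bp past the end. PSMD7 also had a body peak in shLacZ alone (74303010 to 74303282, score 64.7). The same gene thus had shLacZ peaks 6332 bp into its span and past its end, and a shRRN3 peak at its start alone. These shLacZ peaks were at percentiles 48 and 30.6 of their list. The body peak lay 843 bp from another annotated transcript start of PSMD7.

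In shRRN3 the end peaks were those of PSMB4, PSMC3, PSMA7, PSMA1 and PSMC6. The PSMB4 peak (chromosome 1, 151402691 to 151403569) had a score of 120, at percentile 80.2, and lay 1193 bp past the end, inside the span of POGZ. The PSMC3 peak (chromosome 11, 47417886 to 47418555) scored 97.5, lay 549 bp past the end and was in no other protein-coding gene. It was the only peak recorded for PSMC3. The PSMA7 peak (chromosome 20, 62134936 to 62135401) scored 85.7, lay 1565 bp past the end and was inside LSM14B. The PSMA1 peak (chromosome 11, 14502866 to 14503142) scored 72.6, lay 1870 bp past the end and was inside ENSG00000256206, an unnamed protein-coding gene. The PSMC6 peak (chromosome 14, 52729881 to 52730393) scored 56.8, lay 1547 bp past the end and was 29 bp from the start of STYX, so it cannot be assigned to PSMC6 alone. Of these 5 peaks, the PSMC3 peak was the one within 1 kb of the end.

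Start peaks shared with a neighbour were counted, since a peak has no strand. Of the 50 genes, 13 (26%) had the 5' bound of a protein-coding gene on the opposite strand within 1 kb of their own, compared with 13.4% of all protein-coding genes. PSMC5 is not among them, because the 5' bound of FTSJ3 lies farther away than its canonical start. Of these 13, 1 had a start peak in shLacZ and 6 in shRRN3, and of the 37 others 9 and 16 did. Over all protein-coding genes the shares in shLacZ were 14.1% with such a neighbour and 6.55% without, compared with 7.69% and 24.3% of the proteasome genes. In shRRN3 the shares were 48.7% and 19.9% over all protein-coding genes and 46.2% and 43.2% of the proteasome genes. For PSMG2 the midpoint was nearer to the neighbour SPIRE1 (24 bp) than to PSMG2 (40 bp), and for PSME3IP1 nearer to RSPRY1 (444 bp against 465 bp). For PSMA2 with MRPL32, PSMA7 with SS18L1, PSMB1 with TBP and PSME4 with ACYP2 it was nearer to the proteasome gene, measured between 5' bounds. A second, weaker shRRN3 start peak at PSME4 (score 61.7) lay 623 bp from PSME4 and 778 bp from ACYP2 by 5' bounds. The canonical start of ACYP2 was closer to that peak, at 503 bp. PSMD10, whose start lies 119 bp from that of the autophagy protease gene ATG4A, and PSMD13, 35 bp from SIRT3, had no peak.

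Promoter sequence, which the choice of genes did not use, was described last. RefSeq windows of 300 bases, from 250 before to 50 after the start, were matched for 44 of the 50 genes and for 15365 protein-coding genes in all. No window was matched for PSMA7, PSMB1, PSMB6, PSMB7, PSMD4 and PSMG3. The antioxidant response element core TGACNNNGC was found on either strand in 12 of 44 windows (27.3%), compared with 14.3% of all. The ETS core CCGGAAG was found in 17 (38.6%, against 14.8%), the NF-Y box CCAAT in 20 (45.5%, against 36.6%), the GC box GGGCGG in 31 (70.5%, against 61.8%) and the NRF1 site GCGCATGCG in 1, PSMA4 (2.27%, against 2.79%). A match is a description of letters, and binding was not measured.

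Motifs were found in genes with and without peaks. The antioxidant response element core was found in 6 of the 24 windows of genes with a canonical start peak in either list and in 6 of the 20 without, and the ETS core in 10 of 24 and 7 of 20. In the sequences printed above, PSMA3 holds NF-Y boxes at 35 and 18 bases before the start. PSMD14 holds a pair of overlapping NF-Y boxes on opposite strands from 48 to 41 bases before the start and a GC box. PSMC6 holds an ETS core 107 bases before the start and GC boxes at 48 and 36. PSMD12 holds an antioxidant response element core 165 bases before the start, a GC box and an ETS core 8 bases before the start. The shLacZ start peak of PSMD12 lies inside the gene and does not overlap the printed window. PSMA5 holds 2 NF-Y boxes and 2 GC boxes. The GC share of the windows had a median of 62% (44.7% to 75.3%) in the 44 genes and 63.7% in all.

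Other large complexes with constitutive subunits were set beside the proteasome. Of the 86 RPL and RPS genes, which encode cytosolic ribosomal proteins, 59.3% had a start peak in shLacZ (48.2% to 69.8%) and 77.9% in shRRN3 (67.7% to 86.1%). Of the 78 MRPL and MRPS genes for mitochondrial ribosomal proteins, 23.1% (14.3% to 34%) and 62.8% (51.1% to 73.5%) did. The proteasome genes, at 20% and 44%, were thus below the cytosolic ribosomal genes in both lists with intervals that did not overlap, and overlapped the mitochondrial ribosomal genes in both.

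**Figure D5:**
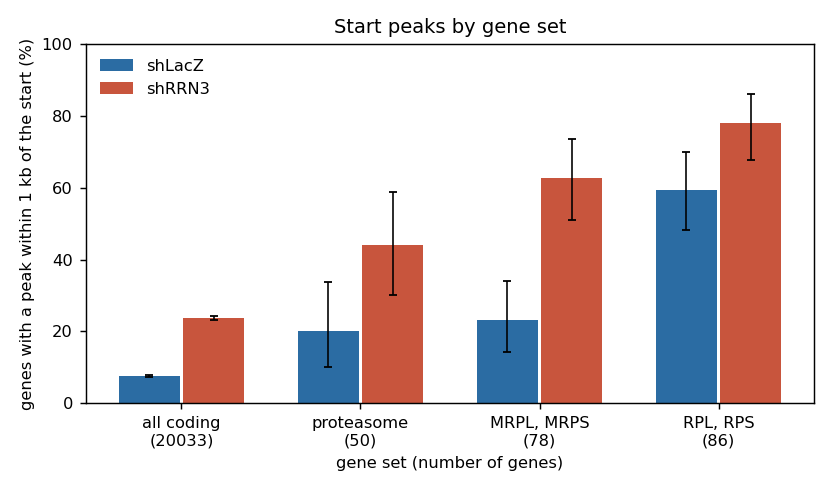
Bars give the percentage of genes with a peak within 1 kb of the start in the shLacZ and shRRN3 lists for all protein-coding genes, the 50 proteasome genes, the 78 MRPL and MRPS genes and the 86 RPL and RPS genes, with 95% Clopper-Pearson intervals that cover counting error only. The proteasome genes, at 20% and 44%, lie between all protein-coding genes, at 7.56% and 23.7%, and the RPL and RPS genes, at 59.3% and 77.9%.

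A list of 29 further genes of the ubiquitin and proteasome pathway was described in the same way. Start peaks were found at 10 of them in shLacZ (34.5%) and at 20 in shRRN3 (69%), against 7.56% and 23.7% of all protein-coding genes, and all 10 were among the 20. NFE2L1, the transcription factor that induces proteasome genes, had a score of 61.8 in shLacZ (percentile 42.2) and of 152 in shRRN3 (percentile 88). POMP, a chaperone of core assembly, had 57.4 (percentile 30.2) and 140 (percentile 85.5), and AKIRIN2, which carries proteasomes into the nucleus, had 60.1 and 92.8. The ubiquitin-binding ZFAND5 (87.4 and 128) was also marked in both. The ubiquitin genes UBB and RPS27A had start peaks in both lists, with shLacZ scores of 158 and 131. At UBB and at UFD1, a cofactor of the segregase VCP, the percentile was lower in shRRN3. It went from 91.7 to 89.1 at UBB and from 87.3 to 62.5 at UFD1. VCP, SEM1, ADRM1, PAAF1, RAD23B, UBQLN1, UBQLN2, TXNL1, NGLY1 and UBE3A had a start peak in shRRN3 alone.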

How the data were processed

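Pol II ChIP-seq was measured in 1 shLacZ and 1 shRRN3 library of SK-OV-3 cells. The authors deposited 1 peak list per library, with coordinates and a score for each peak, called per library by a program that names its peaks MACS. The deposited score, which has no header, was read as −log10 of a p-value multiplied by 10, because it starts at 50 and stops at 3100. This reading is an assumption. The submitters' processing notes name hg38. The aligner, caller version, threshold, use of input and treatment of reads shared between copies are not given in the sources used here.

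Peaks on chromosomes 1 to 22, X and Y were placed by midpoint on GENCODE release 44 genes as start peaks (within 1 kb of the 5' bound), body peaks (the rest of the span) or end peaks (within 2 kb past the end). Canonical starts are those of Ensembl canonical transcripts. Coordinates are 1-based, and overlap needed at least 1 bp. Percentiles are ranks of scores within a list on these chromosomes. The window code was tested on simulated peaks and checked against bedtools 2.31.1, which gave the same 1515 and 4753 genes with a start peak. Promoter windows came from RefSeq (GRCh38.p14), and all 44 matched windows equalled the hg38 sequence. Tools were Python 3.11.15, numpy 2.4.6, scipy 1.17.1 and matplotlib 3.10.9.

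The gene list, pathway list, motifs and alternatives were chosen with earlier results of these data known. All proteasome genes with a start peak in either list are named, with coordinates for those in both lists, in shLacZ alone, past an end or among the 5 highest scores per list. Pathway genes with a shLacZ start peak are named, except some that are not reported here individually. Alternatives were other windows and starts, a stricter score, the shortened shRRN3 list, the constitutive subunits alone and, chosen after seeing the data, score ranks from the top of each list.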

Additional observations from a re-analysis of the deposited data

How the results depend on the processing

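Of 57 values under alternatives, for 11 counts of proteasome genes, 42 stayed within 1.5 times of the reported count and 15 moved further. Some of the 42 were fixed in advance, since shortening the shRRN3 list cannot change a count of genes with a peak in shLacZ. The counts for the constitutive subunits cover 31 genes in place of 50. The tally is therefore not a number of independent checks. With both lists held to the median shLacZ score of 66.05, start peaks in shLacZ fell to 4 genes, those in shLacZ alone to 1, any peak in shLacZ to 4, and body and end peaks in shLacZ to 0 each. The start shares were then 8% of the proteasome genes and 4.38% of all protein-coding genes in shLacZ, and 30% and 17.8% in shRRN3. With the shRRN3 list shortened to the length of shLacZ, its start peaks fell to 11 genes, those in shRRN3 alone to 3, any peak to 14, body peaks to 3 and end peaks to 1. Counting any annotated transcript start gave 5 genes with a start peak in shLacZ alone. A 1 kb window past the end gave 1 gene in shRRN3, and a 5 kb window gave 2 in shLacZ and 8 in shRRN3. By rank from the top of each list, an alternative chosen after seeing the data, 4 of the 8 start peaks in both lists ranked higher in shRRN3, in place of 8 by percentile. The shortened and stricter lists hold fewer peaks by construction, and the cause of the other changes was not tested. The absent read depth limits every statement on a missing peak. No paired analysis was possible because each hairpin had 1 library.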

Other observations

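GENCODE lists 44 pseudogenes and 7 long noncoding RNA genes whose names follow the same pattern. None of the 44 pseudogenes had a peak overlapping its span or the 1 kb on either side in shLacZ or in shRRN3. A count of 0 was taken to allow up to 3 of 44, or 6.82%, an approximate limit and not a Clopper-Pearson interval. Of the 7 noncoding RNA genes, 2 had such a peak in shLacZ and 4 in shRRN3. The share over all pseudogenes or all noncoding RNA genes is not given here, so neither count can be called high or low. PSMA3-AS1, antisense to the end of PSMA3, had a peak in both lists, with scores of 61.1 and 94.7. PSMD6-AS2 had one in shRRN3 alone, of score 64.6. The peaks at PSMD14-DT and PSMD7-DT, which are transcribed away from PSMD14 and PSMD7, include those at the starts of these coding genes, and peaks have no strand.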
